A study of Mus musculus with 4 samples.

Results

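Transcripts of 8 cytokine genes of effector T cells, Ifng, Tnf, Il2, Il21, Csf1, Lta, Ltb and Il10, were followed among 32285 genes counted in single T cells from mouse tumors. The genes were chosen by name and read in Cd4 cells, with at least 1 UMI of Cd4 and none of Cd8a or Cd8b1, and in Cd8 cells, with at least 3 UMIs of Cd8a and Cd8b1 together and none of Cd4. A UMI stands for 1 captured mRNA molecule. Tumors had been grown under the skin of 6-week-old male wild-type C57BL/6J mice from Tsc2-deficient 105K kidney tumor cells, and the comparison asks how T cells differ when the tumor cells carry less B7-H3, an immune checkpoint protein encoded by Cd276. The 105K cells of the control group (sh-NC) carried a non-targeting hairpin and those of the knockdown group (sh-B7-H3 (1)) a hairpin against Cd276, both as puromycin-selected mixed pools of transduced cells, and the T cells of the host carried neither. From each group 80 tumors were pooled, live CD3+ cells were sorted after a Ficoll gradient, stained with barcoded antibodies and made into 2 CITE-seq libraries, so that RNA and surface proteins were counted in the same cells. The deposited design describes 1 pool per group run on duplicate lanes, whereas the article calls the libraries independent pooled samples and biological replicates. The article's methods also describe the tumors of a group as pooled before the sort and the cells as loaded on a single lane. The files do not tell which holds. Every p-value below rests on these 2 libraries per group, whose spread may be only technical, and none measures the spread between mice. Comparisons made inside libraries, of Cd8 with Cd4 cells or of cells with and without Ifng, had the library as a term. Their p-values measure how far such a difference varies from library to library.

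Interferon gamma, the product of Ifng, activates macrophages and raises antigen presentation in tumor cells, and it is the defining cytokine of type 1 helper and cytotoxic T cells. Tumor necrosis factor (Tnf) and the lymphotoxins (Lta, Ltb) are related ligands, Il2 and Il21 feed T cell growth and help, Csf1 keeps macrophages alive, and Il10 restrains inflammation. Signals from the T cell receptor switch these genes on through factors such as NFAT, AP-1 and NF-kappaB, and AU-rich elements in the 3′ untranslated region, built from the pentamer ATTTA, mark many of the transcripts for fast decay.

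Because a UMI count reads the amount of transcript that has escaped decay, the 30 bases of each 3′ untranslated region that hold the most pentamers are printed first (GRCm38, transcript strand, ATTTA in capitals).
Ifng (chr10:118445330-118445359, plus strand): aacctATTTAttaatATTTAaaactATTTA
Tnf (chr17:35199679-35199708, minus strand): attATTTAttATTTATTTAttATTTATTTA
Il2 (chr3:37121040-37121069, minus strand): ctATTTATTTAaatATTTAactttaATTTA
Il21 (chr3:37223641-37223670, minus strand): gtgatttttatATTTAagacaatgtATTTA
Csf1 (chr3:107741109-107741138, minus strand): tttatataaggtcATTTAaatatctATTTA
Lta (chr17:35203404-35203433, minus strand): tatggagagaaaagttaagttATTTATTTA
Il10 (chr1:131024372-131024401, plus strand): cctcgtttgtacctctctccgaaatATTTA
Tnf held 8 pentamers in 764 bases and 5 copies of the nonamer TTATTTATT, and 0.301% of genes with 3′ untranslated regions of similar length held as many pentamers. The like share was 0.512% for Il2, with 7 pentamers, 1.41% for Ifng and 2.22% for Il10, with 6 each. It was 13.6% for Lta, 16.1% for Il21 and 49.98% for Csf1, which held 3, 9 and 4, so the density of these elements set Tnf, Il2, Ifng and Il10 apart from most genes and Csf1 not at all. Ltb held no pentamer in 174 bases. The nonamer was found in 4 of the 8 genes (Tnf, Il2, Il21 and Lta) and in 7.66% of 21037 genes.

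The 250 bases upstream of the start site are shown for the 3 genes whose transcripts passed the test in at least 1 of the lineages below, Ifng, Csf1 and Lta (GRCm38.p6, from RefSeq, gene strand). Motifs were searched on both strands of the whole RefSeq entry, 250 bases before to 50 after the start, and capitals mark those in the printed part: TATAAA (a core promoter element), GGAAAA (bound by NFAT), TGANTCA (bound by AP-1), TCACAC (bound by T-box factors) and the NF-kappaB consensus.
Ifng (chr10:118440796-118441045, plus strand): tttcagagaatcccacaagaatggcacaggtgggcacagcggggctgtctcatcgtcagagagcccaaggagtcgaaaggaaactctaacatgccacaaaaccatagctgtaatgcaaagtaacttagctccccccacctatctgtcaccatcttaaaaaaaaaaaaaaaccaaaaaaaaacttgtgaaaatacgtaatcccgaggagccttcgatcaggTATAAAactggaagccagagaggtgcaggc
Csf1 (chr3:107760470-107760719, minus strand): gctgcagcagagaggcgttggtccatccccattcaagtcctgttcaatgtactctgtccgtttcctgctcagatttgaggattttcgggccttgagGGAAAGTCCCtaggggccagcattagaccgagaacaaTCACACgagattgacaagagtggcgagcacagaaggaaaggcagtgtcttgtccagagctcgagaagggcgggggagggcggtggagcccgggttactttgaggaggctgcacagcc
Lta (chr17:35205352-35205601, minus strand): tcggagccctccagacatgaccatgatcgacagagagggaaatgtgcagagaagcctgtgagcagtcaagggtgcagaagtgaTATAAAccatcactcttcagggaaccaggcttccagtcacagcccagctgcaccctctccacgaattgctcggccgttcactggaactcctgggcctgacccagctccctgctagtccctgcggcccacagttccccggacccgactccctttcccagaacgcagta
TATAAA was present in the 300-base entry of Ifng, Tnf, Il2 and Lta and in 13.6% of 32851 promoters of the same length. Copies were counted wherever they lay. That of Lta lies much farther from the start site than that of Ifng and need not be a core element. GGAAAA occurred 2 times each in Tnf, Il2 and Il21, against 23.4% of promoters with any copy, and in none of the 3 entries printed in part. Csf1 held TCACAC, as did Il21 (14.5% of promoters), and an NF-kappaB match, as did Ltb (4.51%). TGANTCA was in none of the 7 member windows available and in 7.81% of promoters. Tnf, Lta and Ltb are neighbours on chromosome 17 between bases 35194439 and 35205351, and Il2 and Il21 lie on chromosome 3.

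The files listed 7030 to 12112 called barcodes per library with 79224898 to 132820909 RNA UMIs, and 3302 to 6818 cells per library were kept after filters on genes, mitochondrial UMIs and doublets. Barcodes over 5% mitochondrial UMIs were 2535 of 12112 and 2251 of 10589 in the control libraries. They were 2643 of 7030 and 3330 of 9129 in the knockdown libraries, a larger part. Of the kept cells, 68.5% and 70.8% against 62.2% and 63.1% fell in either gate. Any pair of libraries shared 17 to 35 barcodes, at most 0.427% of the smaller. The Cd4 gate took in 1783 and 1501 cells of the control and 796 and 1009 of the knockdown libraries, and the Cd8 gate 2888, 2539, 1258 and 1695. A Cd3 transcript was found in at least 99.2% of gated cells in each library. Cells of the knockdown libraries were shallower, with a median of 6702.5 and 6787 UMIs per Cd4 cell against 7513 and 7964 in the controls. Shares of cells with a transcript are therefore given after thinning every cell to 2000 UMIs, which left out 1 to 21 cells per library and gate, with unthinned shares where they differ. Levels are counts per 1000000 UMIs (CPM) summed over a gate, and in such sums fewer cells with a transcript and less transcript per cell cannot be told apart.

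Ifng was higher in the knockdown libraries in both lineages. In Cd4 cells its level was 33.4 and 46.6 CPM in the 2 control libraries and 214 and 164 CPM in the knockdown libraries. In Cd8 cells it was 15.7 and 20.7 CPM against 117 and 104. Both knockdown libraries stood above both controls in each lineage, without overlap. The fitted log2 fold change was 2.14 (SE 0.11, edgeR adjusted p = 6.5e-12) in Cd4 cells and 2.50 (SE 0.07, edgeR adjusted p = 2.6e-20) in Cd8 cells. Of the 8 members, 2 were called higher and none lower in Cd4 cells (Ifng and Csf1), where 9.64% of 11269 genes were called, 7.29% higher and 2.35% lower. A call required an adjusted p under 0.05 and a log2 fold change of at least 1 in either direction. In Cd8 cells 2 of the 6 members tested were called higher (Ifng and Csf1) and 1 lower (Lta), where 10.1% of 11744 genes were called, 7.69% higher and 2.44% lower.

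The rise of Ifng was seen in the share of cells with a transcript. At 2000 UMIs per cell, 3.82% and 4.83% of control Cd4 cells held an Ifng UMI, against 18.3% and 16.7% of knockdown Cd4 cells. Among Cd8 cells it was 3.00% and 4.04% against 17.4% in both knockdown libraries. Without thinning, 32.9% (262 of 796, exact 95% interval 29.7 to 36.3%) and 29.5% of knockdown Cd4 cells held a UMI, against 6.34% and 7.86% of control Cd4 cells. The Ifng UMIs per positive Cd4 cell, by contrast, were 4.11 and 4.86 in the controls and 4.45 and 3.85 in the knockdown libraries, and the groups overlapped. In positive Cd8 cells there were 2.34 and 2.39 against 2.47 and 2.24. These counts per positive cell were not thinned. Cd8 cells had a median of 8772.5 and 9097 UMIs in the controls and 7056 and 7192 after knockdown. Whether Ifng per positive cell differed at equal depth was not tested. Ifng UMIs were also present outside cells. Droplets called empty held Ifng at 18.9 and 22.1 CPM in the control and 83.4 and 70.5 CPM in the knockdown libraries. This free RNA lay below the Cd4 level in each library. It lay above the Cd8 level in both controls (15.7 and 20.7 CPM) and below it after knockdown (117 and 104 CPM). Its part in the Ifng values was not tested. Myeloid cells without a Cd3 transcript, which make little Ifng, held an Ifng UMI in 0 of 23 and 0 of 24 cells in the control libraries and in 5.49% of 91 and 1.45% of 69 cells in the knockdown libraries, at median depths of 1652 to 3180 UMIs. The zeros allow shares of up to 13.0% and 12.5%. The shares in the knockdown libraries lie below those of Cd4 and Cd8 cells of the same libraries, whose cells were deeper. Among the other members, Lta, Csf1, Il2 and Il21 gave no UMI in the same myeloid cells, which allows shares of up to 3.30% and 4.35% in the knockdown libraries. That limit is above most shares of these genes given below, so at this number of cells a background could not be told from expression for them by their shares alone. Free RNA of each is given beside its result. Intervals cover counting error only.

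**Figure D1:**
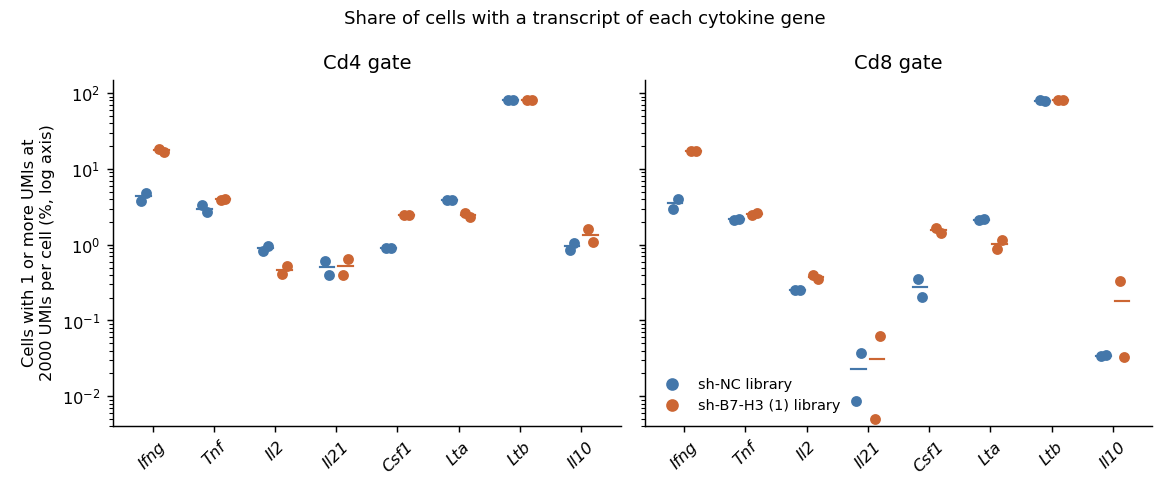
Share of cells with at least 1 UMI of each cytokine gene at 2000 UMIs per cell (percent, log axis) in the Cd4 gate (left) and the Cd8 gate (right). Each point is 1 library (blue sh-NC, orange sh-B7-H3 (1)), the short line is the mean of the 2 libraries, and the share of 0 for Il21 in Cd8 cells of knockdown library 1 is drawn at the foot of the axis; Ifng and Csf1 separate in both gates and Ltb sits near 80% throughout.

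Tnf moved little. Its level in Cd4 cells was 18.8 and 14.6 CPM in the control and 27.3 and 24.8 CPM in the knockdown libraries, without overlap, and the change of 0.53 on the log2 scale (SE 0.13, edgeR adjusted p = 0.0021) stayed below the fold limit. Leaving out cells with more than 1 UMI of myeloid or B cell markers gave 0.40 (edgeR adjusted p = 0.088). These markers included Ighm, at 209 and 194 CPM in control and 111 and 110 CPM in knockdown Cd4 cells. The cells left out thus need not be myeloid or B cells, and how many remained is not given here. Cells with at least 10 UMIs of myeloid markers made up 1.98% of the Cd4 gate in knockdown library 2 and held 20.1% of its Tnf UMIs, and in the other libraries 0.67% to 1.68% of them. In Cd8 cells Tnf was at 10.9, 11.05, 12.7 and 13.8 CPM in the same order of libraries (log2 fold change 0.17, SE 0.11, edgeR adjusted p = 0.19). Tnf free RNA was at 19.8 and 19.9 CPM in the control and 28.3 and 22.5 CPM in the knockdown libraries, higher in the latter as in Cd4 cells, and above the level in Cd8 cells. Its part in the Tnf values was not tested. The share of Cd8 cells with Tnf was 2.14% and 2.18% against 2.50% and 2.65% when thinned, and the groups overlapped without thinning. Tnf, with the most ATTTA pentamers in the stretches printed above, thus showed no change of the size of that of Ifng in these libraries.

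The lymphotoxin genes differed from each other. Lta, whose product forms a soluble trimer or joins Ltb at the cell surface, was lower in the knockdown libraries, with 22.0 and 21.6 CPM in control Cd4 cells against 16.8 and 12.9 CPM. In Cd8 cells it was at 11.4 and 11.7 CPM against 5.26 and 6.66 CPM. Both knockdown libraries lay below both controls in each lineage. The log2 fold change was -0.67 in Cd4 cells (SE 0.12, edgeR adjusted p = 0.00025), short of the fold limit, and -1.03 in Cd8 cells (SE 0.14, edgeR adjusted p = 5.3e-07), just past it. The Cd8 call ended with 3 times as many doublets removed (-0.98), with up to 10% mitochondrial UMIs (-0.81), with no upper limit on genes (-0.94) and without knockdown library 1 (-0.88), while the adjusted p stayed below 0.05. The share of cells with Lta at 2000 UMIs fell from 3.91% and 3.90% to 2.65% and 2.30% in Cd4 cells and from 2.12% and 2.15% to 0.87% and 1.15% in Cd8 cells. Free Lta RNA was also lower in the knockdown libraries, at 18.6 and 16.6 CPM against 24.6 and 22.5 CPM. It lay above the level in Cd4 and in Cd8 cells of every library, and its part in the Lta values was not tested. Ltb, by contrast, was found in 80.7% and 80.9% of control Cd4 cells and in 81.4% and 80.5% of knockdown Cd4 cells. Its log2 fold change was 0.01 in Cd4 cells and -0.01 in Cd8 cells (edgeR adjusted p = 0.89 and 0.76), with SEs of 0.04 and 0.03, so these data put its change close to 0. Free Ltb RNA was at 897 and 903 CPM in the control and 914 and 997 CPM in the knockdown libraries. The Cd4 level was 1033 and 1068 against 1169 and 1089 CPM, and the Cd8 level 950 and 930 against 1015 and 985 CPM. Myeloid cells without Cd3 held Ltb in 17.4% and 0% against 15.4% and 13.0% of cells. The part of free RNA in the Ltb values was not tested.

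Csf1 rose in both lineages. In Cd4 cells it was at 4.83 and 4.23 CPM in the control and 14.5 and 13.3 CPM in the knockdown libraries, and in Cd8 cells at 1.38 and 0.76 CPM against 7.94 and 7.43 CPM. The counts were low, 36 and 18 UMIs in the control Cd8 cells and 74 and 96 in the knockdown Cd8 cells. The groups were far apart in both lineages, by 1.51 on the log2 scale (SE 0.18, edgeR adjusted p = 1.3e-06) in Cd4 cells and 2.71 (SE 0.23, edgeR adjusted p = 1.5e-10) in Cd8 cells. Thinned shares were 0.91% in both control libraries against 2.49% and 2.44% in Cd4 cells, and 0.35% and 0.20% against 1.67% and 1.43% in Cd8 cells. Free Csf1 RNA was at 1.44 and 1.77 CPM in the control and 5.73 and 5.18 CPM in the knockdown libraries, from 9 to 16 UMIs. It lay below the Cd4 level in each library, above the Cd8 level in the controls and below it after knockdown, and its part was not tested. The Cd4 call rested on which cells were kept: leaving out cells with more than 1 UMI of myeloid or B cell markers brought the Cd4 log2 fold change to 0.70 (edgeR adjusted p = 0.025), under the fold limit, and the Cd8 value to 2.52. As said for Tnf, this filter also counted Ighm, which was lower in knockdown Cd4 cells, so it did not leave out only myeloid or B cells. Summed myeloid markers were at 270 and 192 CPM in control and 268 and 262 CPM in knockdown Cd4 cells, and at 120 and 163 against 331 and 311 CPM in Cd8 cells. Of 12 myeloid markers, 7 were higher in both knockdown libraries in Cd4 cells and 11 in Cd8 cells. Cells with at least 10 such UMIs held at most 1.49% of the Csf1 UMIs of the Cd4 gate in any library and at most 8.11% of those of the Cd8 gate. Their further part in the result was not tested.

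Il2, the T cell growth factor, and Il21, a product of helper cells, gave few UMIs. Il2 was at 4.04 and 4.88 CPM in control Cd4 cells and 2.01 and 2.86 CPM in knockdown Cd4 cells, from 56, 60, 11 and 20 UMIs. Free Il2 RNA was at 3.04 to 3.8 CPM in the 4 libraries, above the Cd4 level in both knockdown libraries and above the Cd8 level in all 4, and its part in the Il2 values was not tested. Both knockdown libraries were lower in Cd4 cells, and the log2 fold change was -0.93 (SE 0.29, edgeR adjusted p = 0.017), under the fold limit. The adjusted p was 0.16 with DESeq2, and the sign turned (0.41) when cells with up to 10% mitochondrial UMIs were let in. In Cd8 cells Il2 was at 1.11 and 1.19 CPM against 1.61 and 1.70 CPM (log2 fold change 0.43, SE 0.32, edgeR adjusted p = 0.28). Il21 was at 3.68 and 2.04 CPM in control and 2.01 and 3.14 CPM in knockdown Cd4 cells, so the groups overlapped (log2 fold change -0.23, SE 0.36, edgeR adjusted p = 0.66). Its free RNA was at 1.60, 1.47, 2.15 and 1.73 CPM in the same order, above the Cd4 level in knockdown library 1. It gave 1, 4, 0 and 4 UMIs in Cd8 cells, too few for the fit, and the 0 of 1258 cells of knockdown library 1 allows a share of up to 0.238%. Il10 was at 7.71 and 7.0 CPM in control and 11.5 and 6.00 CPM in knockdown Cd4 cells, again with overlap (log2 fold change 0.11, SE 0.22, edgeR adjusted p = 0.75). In knockdown library 2, 21.4% of the Il10 UMIs of the Cd4 gate lay in the cells with 10 or more myeloid UMIs. Cd8 cells gave 3, 4, 25 and 3 UMIs of Il10 in the order of libraries. Free Il10 RNA was at 2.88, 4.27, 6.09 and 4.49 CPM, below the Cd4 level and above the Cd8 level in all 4 libraries. Myeloid cells without Cd3 held Il10 in 1.10% of cells in knockdown library 1. The part of free RNA in the Il10 values was not tested.

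**Figure D2:**
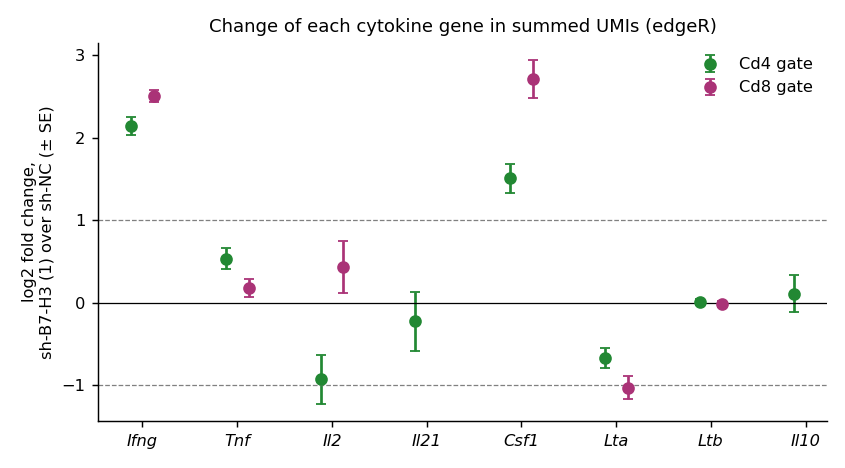
Log2 fold change of each cytokine gene, sh-B7-H3 (1) over sh-NC, from edgeR on UMIs summed per library, in the Cd4 gate (green) and the Cd8 gate (purple), with bars of 1 SE and dashed lines at the fold limit of 1 and -1. Ifng (2.14 and 2.50) and Csf1 (1.51 and 2.71) lie above the upper line in both gates and Lta (-0.67 and -1.03) below 0; Il21 and Il10 had too few Cd8 UMIs to be fitted.

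Exact permutation tests over the libraries (two-sided) gave p = 0.333 for the thinned share of every member whose groups did not overlap, which is the smallest value 2 against 2 libraries can give, and 0.444 after adjustment over the 16 comparisons of 8 genes in 2 lineages. Thinned shares were higher without overlap for 4 members in Cd4 cells (Ifng, Tnf, Csf1 and Il10) and 5 in Cd8 cells (Ifng, Tnf, Il2, Csf1 and Ltb), and lower for 2 (Il2 and Lta) and 1 (Lta). Without thinning the direction of Ltb in Cd8 cells turned, with 98.9% and 98.7% of control against 98.0% and 98.2% of knockdown cells. Separation without overlap was common among all genes: the summed level was higher in both knockdown libraries than in both controls for 43.5% of genes in Cd4 cells and 47.5% in Cd8 cells, and lower for 26.1% and 26.3%. On that same measure, the summed level, 4 members were higher and 2 lower in Cd4 cells and 6 higher and 1 lower in Cd8 cells. With 8 members, nothing is read from these counts.

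Between the lineages, 4 of the 8 members were called lower in Cd8 than in Cd4 cells of the control libraries and none higher, where 7.44% of 11943 genes were called, 5.2% lower and 2.24% higher. These were Il10, Il21, Csf1 and Il2, with log2 ratios of Cd8 to Cd4 cells of -5.45, -4.54, -1.88 and -1.77 (edgeR adjusted p = 2.0e-13, 2.9e-08, 5.1e-08 and 8.0e-07). The control Cd8 cells gave only 3 and 4 UMIs of Il10 and 1 and 4 of Il21. Ifng, Lta and Tnf were also lower in Cd8 cells, by ratios short of the fold limit (-0.95, -0.74 and -0.43, edgeR adjusted p of 0.0018 or less), and Ltb was level (0.02). In the knockdown libraries 3 members were called lower in Cd8 cells (Il10, Il21 and Lta) and none higher, where 5.44% of genes were called, 3.68% lower and 1.77% higher. The difference of the knockdown effect between the lineages was called for 2 members, both larger in Cd8 cells, where 1.22% of genes were called, 0.703% with a larger and 0.519% with a smaller value in Cd8 cells. Csf1 rose more in Cd8 cells by 1.2 on the log2 scale (SE 0.28, edgeR adjusted p = 0.0075), and the value without control library 2 was 0.94 (edgeR adjusted p = 0.10). Il10 differed by 2.89 (SE 0.63, edgeR adjusted p = 0.0040), which rested on 25 UMIs in 10 Cd8 cells of knockdown library 1 against 3 UMIs in knockdown library 2, and without the former library it was 0.98 (edgeR adjusted p = 0.76), and with myeloid- or B-marked cells left out it was 3.10 (edgeR adjusted p = 0.094). For Ifng the difference was 0.37 (SE 0.09, edgeR adjusted p = 0.0075), under the fold limit, and it was 0.32 without control library 2 (edgeR adjusted p = 0.069), 0.26 without knockdown library 2 (0.14), 0.25 with 3 times as many doublets removed (0.14) and 0.08 without myeloid- or B-marked cells (0.85).

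To see in which cells the transcripts lay, each gate was divided by RNA into 3 states: cells with a Foxp3 UMI (the regulatory T cell factor), other cells with at least 3 UMIs of Nkg7 (a cytotoxic granule protein), and the rest. The Nkg7 state took 7.57% and 9.39% of control Cd4 cells and 47.4% and 46.9% of knockdown Cd4 cells, and the rest 82.9% and 79.4% against 39.3% and 41.9%. Most Cd8 cells were in the Nkg7 state in every library, 77.7% and 81.4% in the controls and 89.0% and 88.8% after knockdown. The mix of these 3 states thus shifted more in Cd4 than in Cd8 cells. Most control Cd8 cells already met the limit of 3 Nkg7 UMIs, which left little room for a shift. Free Nkg7 RNA was higher in the knockdown libraries too, at 1389 and 1381 CPM against 538 and 557 CPM, and its part in the size of the state was not tested.

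In Cd4 cells Ifng lay mostly in the Nkg7 state, which held 79.3% and 90.1% of the Ifng UMIs of the gate in the controls and 97.3% and 96.7% after knockdown. Within that state, 38.3% and 44.3% of control cells and 36.2% and 33.6% of knockdown cells held an Ifng UMI at 2000 UMIs per cell. The knockdown libraries were thus not higher within the state that held most of the Ifng UMIs. In the Foxp3 state the shares were 0.93% and 0.39% against 3.2% and 3.53%, from 3, 1, 9 and 6 cells before thinning. The 3.2% of knockdown library 1 does not exceed the 5.49% of its myeloid cells without Cd3 that held Ifng, so it is not read as expression. In knockdown library 2 it was 3.53% against 1.45%. In the rest the groups overlapped (0.99% and 0.78% against 1.38% and 0.64%). With the knockdown libraries' own mix of states and the control share within each state, 20.2% of knockdown Cd4 cells would hold Ifng, against 17.5% observed, a difference of -2.68 percentage points (SD 1.81 over the 4 pairs of a knockdown and a control library). Cd8 cells differed from this. Within their Nkg7 state 3.81% and 4.87% of control cells held Ifng against 18.9% and 19.2% of knockdown cells. The same calculation gave 3.96% expected and 17.4% observed, a difference of 13.5 percentage points (SD 0.60), so the shift among these 3 states accounted arithmetically for little of the Cd8 value.

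The Nkg7 state of Cd8 cells was not uniform, and it was split further by a UMI of Pdcd1 or Lag3, genes of inhibitory receptors that mark recently or repeatedly stimulated T cells, a split chosen after the values above were seen. Cd8 cells of the Nkg7 state with either transcript were 12.02% and 14.6% of the control gate and 56.3% and 54.0% of the knockdown gate, and 22.2% and 22.7% against 26.9% and 27.4% of them held Ifng at 2000 UMIs. Those with neither made up 65.7% and 66.9% against 32.8% and 34.7% of the gate, and 0.47% and 1.01% against 5.05% and 6.47% of them held Ifng. In knockdown library 1 the latter share (5.05%) does not exceed the 5.49% of myeloid cells without Cd3 that held Ifng at a median of 1710 UMIs, so it is not read as expression, while in knockdown library 2 it was 6.47% against 1.45%. The Pdcd1 or Lag3 division took more of the gate in the knockdown libraries. Of Cd4 cells in the Nkg7 state, 91.1% and 94.3% in the controls and 94.7% and 96.8% after knockdown held either transcript. Of Cd8 cells in that state, 15.5% and 17.9% against 63.2% and 60.9% did, so the Nkg7 states of Cd4 and Cd8 cells were not alike. With these 4 classes the expected Cd8 share was 12.7%, which left 4.63 percentage points between expected and observed.

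**Figure D3:**
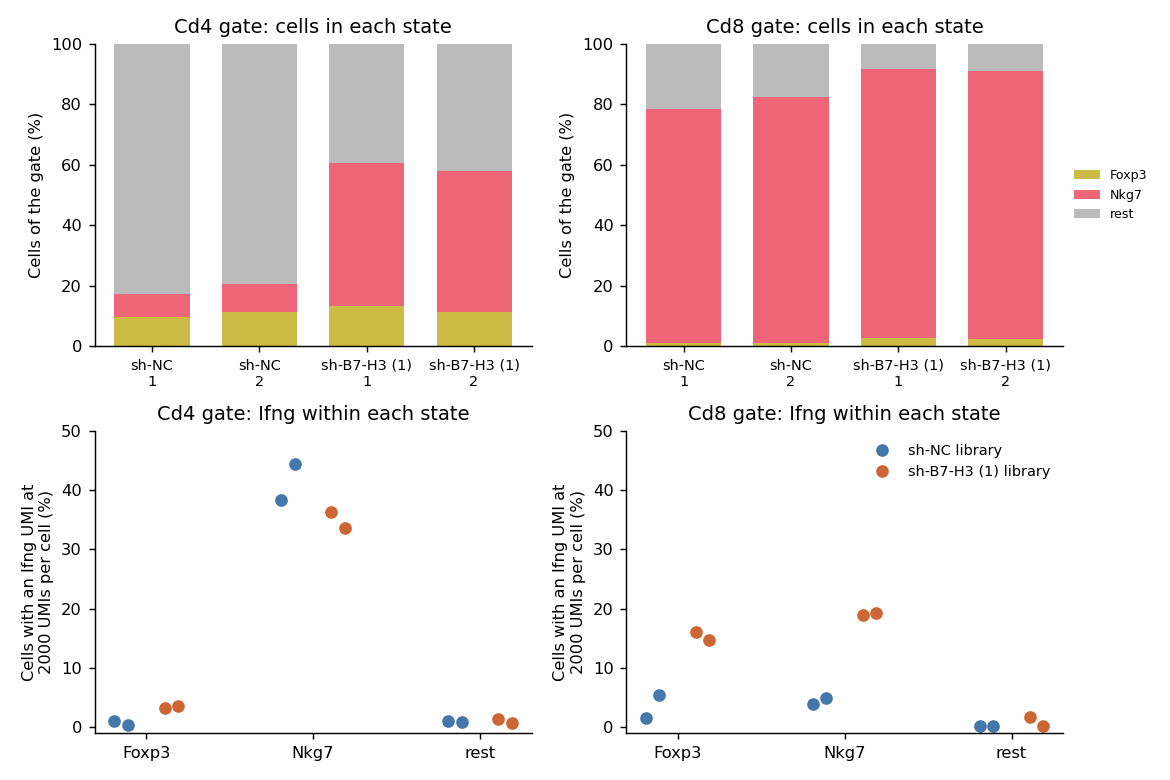
Top, cells of each library in the 3 RNA states as percent of the gate, for Cd4 (left) and Cd8 cells (right); bottom, percent of cells in each state with an Ifng UMI at 2000 UMIs per cell, each point 1 library (blue sh-NC, orange sh-B7-H3 (1)). In Cd4 cells the Nkg7 state grew from under 10% to about 47% with Ifng shares of 33.6% to 44.3% in every library, while in Cd8 cells the Ifng share within it went from 3.81% and 4.87% to 18.9% and 19.2%.

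The other members followed the states in their own ways. Csf1 in Cd4 cells was also found in the largest share of cells in the Nkg7 state, in 6.97% and 4.55% of control and 3.74% and 4.05% of knockdown cells, though by summed level the Foxp3 state was higher in knockdown library 1 (27.0 against 20.1 CPM). Within the Nkg7 state the share was lower in both knockdown libraries, but it was higher in both within the Foxp3 state (2.43% and 2.00% against 3.58% and 2.88%) and the rest (0.18% and 0.32% against 0.57% and 0.44%). In the order of libraries these were 12, 8, 8 and 8 cells of the Foxp3 state and 7, 11, 5 and 6 of the rest before thinning. The rest held Csf1 at 3.68 and 1.98 CPM after knockdown, below free Csf1 RNA (5.73 and 5.18 CPM), so its rise there is not read as expression. With the knockdown libraries' mix of states and the control shares, 3.13% of knockdown Cd4 cells were expected to hold Csf1, against 2.47% observed. In the Cd8 Nkg7 state it went from 0.43% and 0.25% to 1.85% and 1.58%. Lta was lower within the Cd4 Nkg7 state (5.51% and 5.24% against 2.05% and 1.54%) and within the Cd8 Nkg7 state (2.01% and 1.89% against 0.75% and 1.02%). The same calculation gave 4.56% of knockdown Cd4 cells with Lta, against 2.48% observed. Free Lta RNA was lower too, and its part in these shares was not tested. Il2 in Cd4 cells was lower within the Nkg7 state (1.39% and 2.21% against 0.43% and 0.45%) and in the rest (0.84% and 0.91% against 0.33% and 0.57%). Il21 was found in 3.07% and 2.57% of control and 0.84% and 1.17% of knockdown cells of the Cd4 Nkg7 state, and in no Foxp3 cell of any library. Those of the Nkg7 state were 12, 7, 11 and 12 cells before thinning. Il10 lay in the Foxp3 state in 4.48%, 4.11%, 6.66% and 3.33% of cells in the order of libraries, with overlap, and in the Nkg7 state in 4.79% and 4.77% of control against 1.19% and 1.00% of knockdown cells. In the Nkg7 state this was 10, 11, 10 and 10 cells before thinning. Tnf in the Cd4 Nkg7 state was in 6.52% and 5.65% against 4.70% and 4.39% of cells. Ltb there was in 78.2% and 81.3% against 79.6% and 78.0%, with overlap.

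Cells with several of the cytokine transcripts became more frequent. At 2000 UMIs, 10.0% and 10.8% of control Cd4 cells held 2 or more different members, against 21.7% and 20.2% of knockdown Cd4 cells (10.4 ± 0.57 against 21.0 ± 1.07, SD, n = 2, exact permutation p = 0.333). Among Cd8 cells it was 6.36% and 7.32% against 18.3% and 18.0%. Since Ltb was in about 4 of 5 cells, most of these cells held Ltb and 1 other member. Without Ltb, a count made after seeing the data, 1.98% and 1.69% of control Cd4 cells held 2 or more of the 7 others, against 3.19% and 3.07%, and in Cd8 cells 0.37% and 0.39% against 1.46% and 1.43%. Cells with 3 or more of the 7 were 0.38% and 0.31% of control and 0.24% and 0.30% of knockdown Cd4 cells. This share depended on depth: at 4000 UMIs per cell it was 0.91% and 0.70% against 0.98% and 1.03%, and without thinning 1.74% and 1.40% against 2.64% and 1.59%, with overlap. In Cd8 cells it was at most 0.0622% in any library at 2000 UMIs, with overlap, as at 4000 UMIs, and 0.17% and 0.20% against 0.48% and 0.71% without thinning.

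How often 2 members shared a cell was measured by the odds ratio within a library, which is above 1 when cells with the first transcript hold the second more often than other cells do. Odds ratios are at 2000 UMIs per cell and counts of cells with both before thinning, so fewer cells stand behind each ratio than the counts give. In Cd4 cells 17 of 28 pairs had at least 3 cells with both in every library, and 11 of these had odds ratios above 1 in all 4 libraries. The strongest was Ifng with Il21, with odds ratios of 24.4 and 15.3 in the controls and 16.3 and 10.8 after knockdown, from 18, 7, 11 and 12 cells with both before thinning and 0.29%, 0.17%, 0.31% and 0.44% of cells at 2000 UMIs. Of Cd4 cells with Il21, 47.3%, 42.8%, 78.3% and 67.9% also held Ifng. Csf1 and Il10 shared cells with odds ratios of 10.4, 8.66, 9.45 and 5.86, from only 3 to 6 cells per library. These pairs hold cells of 1 library each, so the ratios describe those cells and carry no test.

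Of the 17 Cd4 pairs, 7 had lower odds ratios in both knockdown libraries than in both controls and 2 had higher ones (Lta with Ltb and Il21 with Ltb). Most pairs with Ifng were lower, except those with Il21 (above) and Ltb (0.86 and 1.12 against 0.93 and 0.84), which overlapped. For Ifng and Il10 the odds ratios fell from 12.9 and 9.71 to 1.62 and 1.2, and for Ifng and Csf1 from 8.94 and 4.97 to 1.2 and 1.81. For Ifng and Tnf they went from 4.05 and 3.96 to 1.70 and 2.29, and 11.1% and 8.79% of control Cd4 cells with Ifng held Tnf, against 5.75% and 7.44% after knockdown. Ifng and Il2 went from 2.55 and 2.85 to 0.38 and 0.39, with 6, 6, 3 and 3 cells before thinning and only 0.0322% to 0.121% of cells at 2000 UMIs. By contrast Tnf and Lta, neighbours on chromosome 17, had odds ratios of 2.17, 3.34, 1.91 and 3.69 with overlap between groups. In Cd8 cells 10 of 28 pairs had at least 3 cells with both in every library. Of these, 8 had lower odds ratios in both knockdown libraries than in both controls, pairs without Ifng among them, and 0 had higher ones. The Cd8 odds ratios of Ifng with Csf1 were 6.3 and 3.6 against 2.15 and 2.58, and those of Ifng with Tnf 2.48 and 2.72 against 1.26 and 1.42. Pairs of other genes were not measured, so a lower ratio is not shown to be particular to these genes. The ratios cover the whole gate, in which the Nkg7 state went from 7.57% and 9.39% to 47.4% and 46.9% of Cd4 cells. Ratios within a state were not measured, so a lower ratio is not shown to hold among cells of 1 state. The part of the mix of states was not tested.

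**Figure D4:**
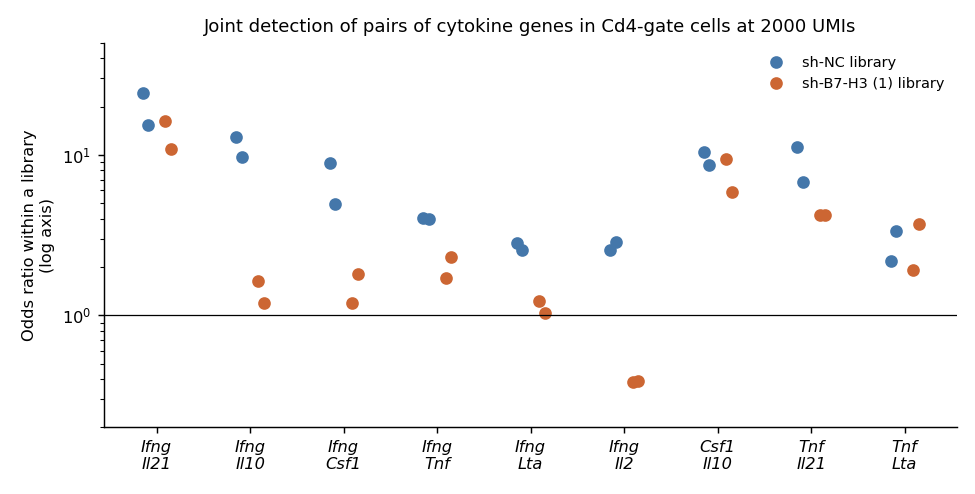
Odds ratio of finding both genes of a pair in the same Cd4-gate cell at 2000 UMIs (log axis, line at 1), 1 point per library (blue sh-NC, orange sh-B7-H3 (1)). Ifng with Il10, Csf1, Tnf, Lta and Il2 lie lower in both knockdown libraries, while Csf1 with Il10 and Tnf with Lta overlap between the groups.

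Surface proteins were not used to choose the genes or the gates. Cd4 cells with and without an Ifng UMI were summed in each library over 197 antibody tags, and 13 tags (6.6%) were called, 10 higher and 3 lower on Ifng-positive cells. Of the 113, 118, 262 and 298 Ifng-positive cells, 84, 96, 243 and 285 lay in the Nkg7 state, in the order of libraries. That state took 7.57%, 9.39%, 47.4% and 46.9% of the gate. Tags were not compared within a state or at equal depth, so they are not shown to mark Ifng-positive cells apart from other cells of the Nkg7 state. CD38, an NAD-consuming enzyme, was highest by fold among the called tags, up by 2.61 on the log2 scale (SE 0.51, edgeR adjusted p = 0.037). It made up 1.27% and 1.32% of tag counts on Ifng-negative and 9.81% and 11.1% on Ifng-positive control cells, and 4.76% and 4.82% against 10.98% and 11.7% in the knockdown libraries. In both groups the Ifng-positive cells were alike, and the Ifng-negative cells of the knockdown libraries lay between. CD39, an enzyme that splits extracellular ATP, followed with 2.24, then the inhibitory receptors PD-1 (1.61) and CD200R (1.59) and the costimulatory ligand CD86 (1.57). The lower tags were the IL-7 receptor chain CD127 (-1.27), the adhesion protein CD102 (-1.16) and KLRG1 (-1.08). The 9 isotype control tags lay between -0.12 and 0.05. The count of called tags was 6 without control library 1, 4 without control library 2 and 2 without knockdown library 2.

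**Figure D5:**
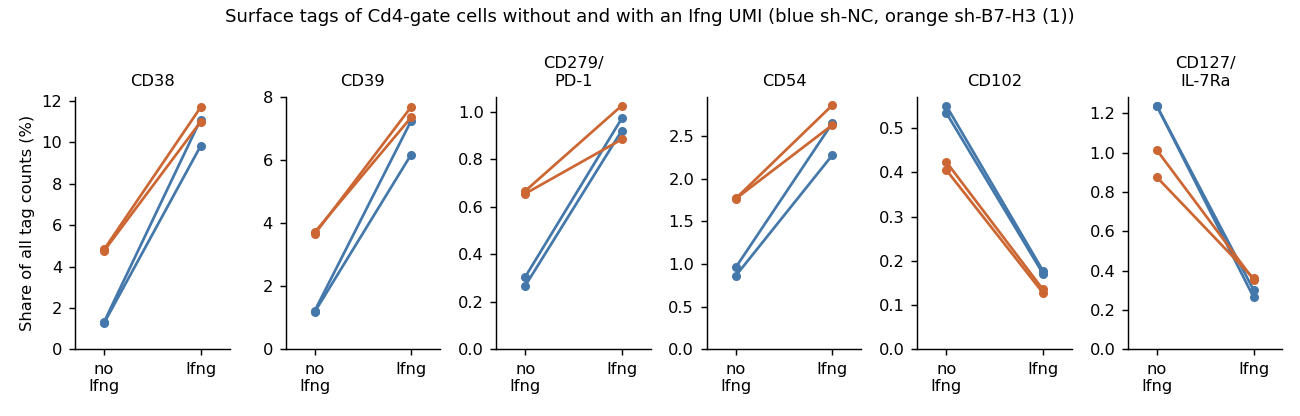
Share of all antibody tag counts (percent) taken by 6 tags on Cd4-gate cells without (left) and with (right) an Ifng UMI, 1 line per library (blue sh-NC, orange sh-B7-H3 (1)). CD38 rises from 1.27% and 1.32% to 9.81% and 11.1% in the controls and from 4.76% and 4.82% to 10.98% and 11.7% in the knockdown libraries, and CD102 and CD127 fall in all 4.

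Genes around the members were read from fixed lists in the same fits. Among 20 other cytokine genes, 7 in Cd4 and 5 in Cd8 cells had enough UMIs, and Csf2, the granulocyte and macrophage growth factor, was the 1 called in each, with log2 fold changes of 1.49 and 3.65 from no more than 4.57 CPM in any library. Of 9 further ligands of the Tnf family, 7 and 8 were tested, 2 and 4 were called higher and 1 and 2 lower. Fasl, the death ligand, was at 16.8 and 17.7 CPM in control and 66.1 and 60.4 CPM in knockdown Cd4 cells (log2 fold change 1.78, edgeR adjusted p = 4.7e-12) and rose by 1.75 in Cd8 cells. Tnfsf10 (TRAIL) rose by 1.57 and 1.31. Of the 12 receptor chains for the 8 cytokines, 11 were tested in each lineage, 4 were called higher and 1 lower in each. Il2rb, shared by the IL-2 and IL-15 receptors, rose by 2.48 and 1.89, Il10ra by 1.98 and 2.20 and Tnfrsf1b by 1.40 and 1.64, and Ifngr2, the signalling chain of the interferon gamma receptor, fell by 1.3 and 1.55 on the log2 scale.

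Of 20 regulators of cytokine genes and transcripts, 6 were called higher in Cd4 and 7 in Cd8 cells and none lower. Eomes and Tbx21, the T-box factors that act on Ifng, rose by 2.46 and 1.96 in Cd4 cells and by 1.45 and 1.28 in Cd8 cells. Bhlhe40 rose by 1.59 and 2.29 and Prdm1 by 1.61 and 2.28. Of the 18 genes that interferon gamma is known to induce, 1 was called in Cd4 cells (Cxcl9, a chemokine, 2.49) and none in Cd8 cells by edgeR, with medians of 0.07 and -0.05 where the median of all genes tested was 0.00 and 0.01. In Cd8 cells 14 of the 18 had an adjusted p under 0.05 with fold changes below the limit, 6 higher and 8 lower, and in Cd4 cells 12 had such a p, Cxcl9 included, 6 in each direction. Of all genes tested, 46.8% and 39.4% passed that threshold in Cd8 and Cd4 cells. Of 7 early activation genes, 3 were called lower in each lineage, Cd69 (-1.54 and -1.05), Jun (-1.38 and -1.13) and Fos (-1.38 and -1.95). Of 8 effector markers 7 and 6 were called higher, among them the chemokine genes Ccl3 (2.27 and 2.82), Ccl4 (1.81 and 2.48) and Ccl5 (2.20 and 2.42). Of 8 follicular helper markers 2 and 4 were called higher and 1 and 0 lower, Tox2 rising by 1.80 and 2.35 and Pdcd1 by 1.94 and 2.17. Of 5 regulatory T cell markers 1 and 3 were called higher, with Ikzf2 at 1.11 and 2.10. Of 6 B cell markers 3 and 4 were tested, and Igkc, the kappa light chain constant gene, was the 1 called higher in each (1.49 and 2.48), while Ighm, the IgM heavy chain constant gene, had -0.96 in Cd4 cells and was called lower in Cd8 cells (-1.18). The B cell markers summed to 224 and 223 CPM in control and 165 and 163 CPM in knockdown Cd4 cells, with medians of -0.41 and -0.62 over the markers tested. Markers of natural killer cells summed to 17.8 and 19.9 CPM in control and 122 and 116 CPM in knockdown Cd4 cells, carried by Eomes and Klre1, with the defining Ncr1 at 0 in both gates. Markers of gamma-delta T cells went from 28.3 and 26.9 to 122 and 112 CPM, carried by Tcrg-C1 and Tcrg-C2 with Trdv4 at 0. The delta chain constant gene Trdc was lower in Cd4 cells, at 8.14 and 6.27 CPM against 4.94 and 4.43 CPM (log2 fold change -0.73, edgeR adjusted p = 0.015), and was called higher in Cd8 cells (1.23). Their part in the cytokine values was not tested.

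The genes whose levels ran most like those of Ifng over 20 sums (4 libraries, 2 lineages and 3 states, sums of at least 50 cells, log2 of CPM plus 1) were Fasl (r = 0.97), Abcb9 (0.97), Efhd2 (0.96), Arsb (0.96) and Sub1 (0.96), among 4728 genes compared. For Csf1 they were Pgrmc1, Ttc39b, Crlf2, Rgs16 and Chst2 (0.97 each). For Ltb the nearest was Il2rg (0.95), for Tnf Sod2 (0.92) and for Lta Prpf38b (0.88). Among the members themselves, Tnf with Il10 had r = 0.88, Csf1 with Il10 0.85 and Ifng with Csf1 0.77, while Ifng with Lta had -0.04. The sums share libraries and states and are not independent, so these values only describe likeness of pattern.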

How the data were processed

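The 4 samples are CITE-seq libraries, 2 per group, with UMI counts of 32285 genes and 197 antibody tags per barcode. Per the labels and the study's methods, the authors made these deposited counts with Cell Ranger and STAR on mm10, and Seurat 4.0.0 is named in the submitters' processing notes. The filtered matrices were used for cells, and the raw ones for free RNA. 1 tag without a name was left out.

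Cells with 200 to 3000 genes and at most 5% mitochondrial UMIs were kept, and the highest simulated-doublet scores were removed in each library (0.8% of barcodes per 1000 called). UMIs were summed per library and gate and compared with the quasi-likelihood test of edgeR 4.0.16 (TMM scaling, filterByExpr, Benjamini-Hochberg adjustment over all genes), in R 4.3.3. The lineage and tag comparisons had the library as a term over 8 sums. The steps were tested on simulated data. Thinned shares are expected values for 2000 UMIs drawn per cell, and the count of members per cell is the mean of 20 draws (Python 3.11.15). 3′ untranslated regions were read from the GRCm38 annotation (8 of 8 members matched) and upstream windows from RefSeq (7 of 8 matched, all but Il10).

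A planned division of the cells outside the Foxp3 and Nkg7 states, and the markers it came from, are not reported here, so these cells form 1 state, a choice made after the values were seen. All 8 members are named. List genes are named only if called in at least 1 gate and among the 4 of their list with the largest fold, or if at 0, the 5 most alike genes per member are those with the highest r, and tags are the 5 highest and 5 lowest called. The members and lists were chosen with earlier results of these data known. Alternatives were DESeq2 1.42.0, its size factors, no low-count filter, a replicate block, other filters, gates and thinning, and leaving out each library. The p-values over permuted libraries are exact.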

Additional observations from a re-analysis of the deposited data

Results flagged for a closer look

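Of all results, 3 were picked out because the effect of the knockdown differed between Cd8 and Cd4 cells in a test of that difference (edgeR, 1 fit over both lineages with the library as a term). The effect was larger in Cd8 cells by 2.89 on the log2 scale for Il10 (edgeR adjusted p = 0.0040), by 1.2 for Csf1 (edgeR adjusted p = 0.0075) and by 0.37 for Ifng (edgeR adjusted p = 0.0075). The Il10 value rested on knockdown library 1 and was 0.98 without it (edgeR adjusted p = 0.76). The Csf1 value was 0.94 without control library 2 (edgeR adjusted p = 0.10) and 1.85 without myeloid- or B-marked cells (edgeR adjusted p = 0.00035). The Ifng value was 0.08 without myeloid- or B-marked cells (edgeR adjusted p = 0.85) and 0.52 with no upper limit on genes (edgeR adjusted p = 9.3e-05).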

How the results depend on the processing

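Ifng was higher in the knockdown libraries in both lineages under every alternative run, with log2 fold changes of 1.91 to 2.38 in Cd4 and 2.06 to 2.73 in Cd8 cells, and Csf1 likewise, with 0.70 to 1.71 and 2.35 to 3.22. Lta was lower throughout, with -0.92 to -0.43 and -1.24 to -0.81. Called genes numbered 1086 and 1189, and 1102 and 1215 with the replicate block, which changed the call of no member. Same-numbered libraries did not deviate together (r = -0.04 in Cd4 and 0.0013 in Cd8 cells over genes). This compares 1 difference between libraries per group, so it cannot tell whether same-numbered libraries shared a batch. DESeq2 called 803 and 933 genes. Where 1 library was left out, the lone library of its group was assumed to vary like the other group. The causes of the changes below were not tested.

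With up to 10% mitochondrial UMIs the Cd4 log2 fold change turned for Il2 (0.41) and Il21 (0.25). With 3 times as many doublets removed it was -0.051 for Ltb and -0.23 for Il10 in Cd4 and 0.0036 for Ltb in Cd8 cells. The setting called T cells only kept cells with a Cd3 transcript and at most 1 UMI of myeloid or B cell markers, Ighm included. With it the Cd4 log2 fold change was -0.038 for Ltb and -0.44 for Il10. With the surface tag gate the log2 fold change of Ltb was -0.017 in Cd4 and 0.0069 in Cd8 cells, and without a low-count filter -0.018 in Cd4 cells. Leaving out 1 library gave Il21 -0.63 to 0.28, Ltb -0.029 to 0.042 and Il10 -0.38 to 0.53 in Cd4 cells and Ltb -0.0496 to 0.0059 in Cd8 cells.

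Differences of thinned shares, in percentage points, turned as follows. In Cd4 cells Il21 was -0.0133 at 1000 UMIs, -0.0282 with 3 times the doublets removed and -0.00164 with 10% mitochondrial UMIs. Ltb was -0.277 at 4000 UMIs, -1.35 unthinned, -0.684 with 3 times the doublets removed and -0.249 with T cells only, where Il10 was -0.0304. In Cd8 cells Tnf was -0.0812 and Ltb -0.712 unthinned, and Il21 -0.0109 with 3 times the doublets removed and -0.00389 with T cells only. Leaving out 1 library gave Il21 -0.104 to 0.146 and Ltb -0.324 to 0.559 in Cd4 cells, and Il21 -0.0228 to 0.0388 and Il10 -0.00173 to 0.296 in Cd8 cells.

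The observed minus expected share of Cd4 cells was -0.0697 points for Ifng with the surface tag gate and -1.76 for Csf1 with T cells only. In Cd8 cells it was 12.7 for Ifng with Nkg7 of at least 5 UMIs, 12.3 with 3 times the doublets removed, 12.73 with no upper limit on genes, 11.6 with 10% mitochondrial UMIs and 4.63 with the split by Pdcd1 or Lag3, where Csf1 was 0.549, and Csf1 was 1.02 with 10% mitochondrial UMIs and 1.46 with T cells only. Tags called numbered 2 to 14 when 1 library was left out.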
